A study of Mus musculus with 9 samples.

Results

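The 10 genes described here, Trem2, Tyrobp, Clec7a, Axl, Itgax, Apoe, Lpl, Spp1, Cst7 and Gpnmb, mark disease-associated microglia. They were taken as a list by their symbols from the 55450 genes counted in the files. The rule used no values, but the list was chosen with earlier results of these data known. All 10 passed the filter that left 20892 genes for testing. Microglia are the resident macrophages of the brain. Around dying neurons, myelin debris and protein deposits they lower their homeostatic genes and raise a program of phagocytosis, lipid handling and lysosomal degradation. Full entry into this program depends on TREM2, a surface receptor for lipids that signals through the adaptor TYROBP, and the same genes are raised in microglia of several models of neurodegeneration.

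Nigral tissue was dissected by hand from saline-perfused mice 5 weeks after lentiviral transduction of the substantia nigra, and its polyadenylated RNA was sequenced in 9 libraries, 3 in each of 3 groups. CTR were CX3CR1-CreERT2 mice given a vector for GFP, described in the methods as destabilized GFP. CX3 were CX3CR1-CreERT2 mice given a Synuclein-expressing vector, and DAT were DAT-Cre mice given that vector. Both vectors were Cre-inducible lentiviruses, the second with the Ef1a promoter, made to be expressed in cells with Cre, which are myeloid cells in CX3CR1-CreERT2 mice and dopaminergic neurons in DAT-Cre mice. Tamoxifen after surgery is stated for the CX3CR1-CreERT2 line only. Age at transduction is given as 8 weeks in one place and 9 weeks, for the purchased mice, in another, and the methods name male mice. By the stated design CX3 and CTR differ in the vector. DAT and CTR differ in the vector, the Cre line and, as far as stated, tamoxifen, whose parts cannot be told apart. Markers of choroid plexus and pituitary, given below, also differed between all groups (Ttr 20.0 CPM in CTR, 1457 in CX3 and 853 in DAT). The part of the tissue taken in the comparisons was not tested. How many animals gave each library is not stated, so the p-values measure only the spread between libraries, which may be technical.

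Reads counted on genes numbered 21592817 to 39475428 a library, and 3 counts, taken as the smallest countable signal, equalled 0.0779 to 0.151 CPM (counts scaled to the normalized library size), a floor that covers counting error only. Libraries of 1 group differed less than libraries of different groups. The median squared difference between a pair of libraries was 1.46 to 1.59 times that of random sampling in CTR, 1.67 to 3.50 times in CX3, 1.82 to 6.79 times in DAT and 9.26 to 45.1 times across groups. DAT library B stood apart within its group, with 6.79 and 5.72 times against libraries A and C, which differed by 1.82 times from each other. Without it, the changes of the 10 genes in DAT against CTR ran from -2.99 (Gpnmb) to 0.41 (Spp1), and the calls in that comparison stayed 1 higher and 9 lower. The human transgene has no entry in the mouse annotation, so the genes that carry Cre in these lines were read instead. Cx3cr1, the fractalkine receptor gene, had 103, 101 and 103 CPM in CTR, 43.6, 45.3 and 45.0 CPM in CX3 and 85.6, 78.5 and 86.2 CPM in DAT. Slc6a3, the dopamine transporter gene, had 128, 133 and 129 CPM in CTR, 193, 195 and 198 CPM in CX3 and 93.3, 88.3 and 91.6 CPM in DAT. The lowest Cx3cr1 was thus in CX3 and the lowest Slc6a3 in DAT. CTR and CX3, which share the Cre line, did not overlap in either gene.

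In CX3 tissue 5 of the 10 disease-associated genes were lower than in CTR. Only 1 was higher, no larger a share than that of all genes tested. In DAT tissue most of the 10 were lower than in either other group. The genes were tested with edgeR's quasi-likelihood test with Benjamini-Hochberg adjustment over all genes tested, and called at an adjusted p under 0.05. In CX3 against CTR, 1 of the 10 genes rose (Clec7a), 5 fell (Gpnmb, Apoe, Trem2, Tyrobp and Axl) and 4 did not pass the test, where 14.0% of all genes tested were called higher and 16.5% lower. Their median log2 fold change was -0.10, against -0.0033 over all genes tested. In DAT against CTR, 9 of the 10 fell and 1 rose (Spp1), where 27.9% of all genes were called lower and 32.0% higher. The median of the 10 was -1.41 on the log2 scale, against -0.0038 over all genes. In CX3 against DAT, 7 were higher in CX3, 2 were lower (Apoe and Spp1) and Axl did not pass, where 27.6% of all genes were called higher and 31.3% lower. The median of the 10 was 0.97, against 0.010 over all genes. The 3 comparisons share libraries with each other and are not independent.

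A stricter rule, a change shown to be over 1.5-fold by edgeR's test against that threshold, left 0 of the 10 genes higher and 2 lower in CX3 against CTR (Apoe and Gpnmb), where 0.828% and 1.70% of all genes passed. In DAT against CTR it left 0 higher and 6 lower, where 7.33% and 10.7% of all genes passed. In CX3 against DAT it left 5 higher and 0 lower, where 9.93% and 8.17% of all genes passed. In CX3 against CTR, Trem2, Tyrobp, Axl and Clec7a were thus called but not shown to exceed 1.5-fold. Calls that were higher made up 45.9%, 53.4% and 46.8% of all calls in CX3 against CTR, DAT against CTR and CX3 against DAT. With library size alone as the scaling those shares were 58.9%, 37.8% and 66.7%, and the median of all genes shifted by 0.047, -0.15 and 0.19 on the log2 scale. No change of the 10 genes turned its direction under that scaling. In RNA of whole tissue, fewer cells of a type and less RNA in each cell cannot be told apart, which holds for every result given here.

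**Figure D1:**
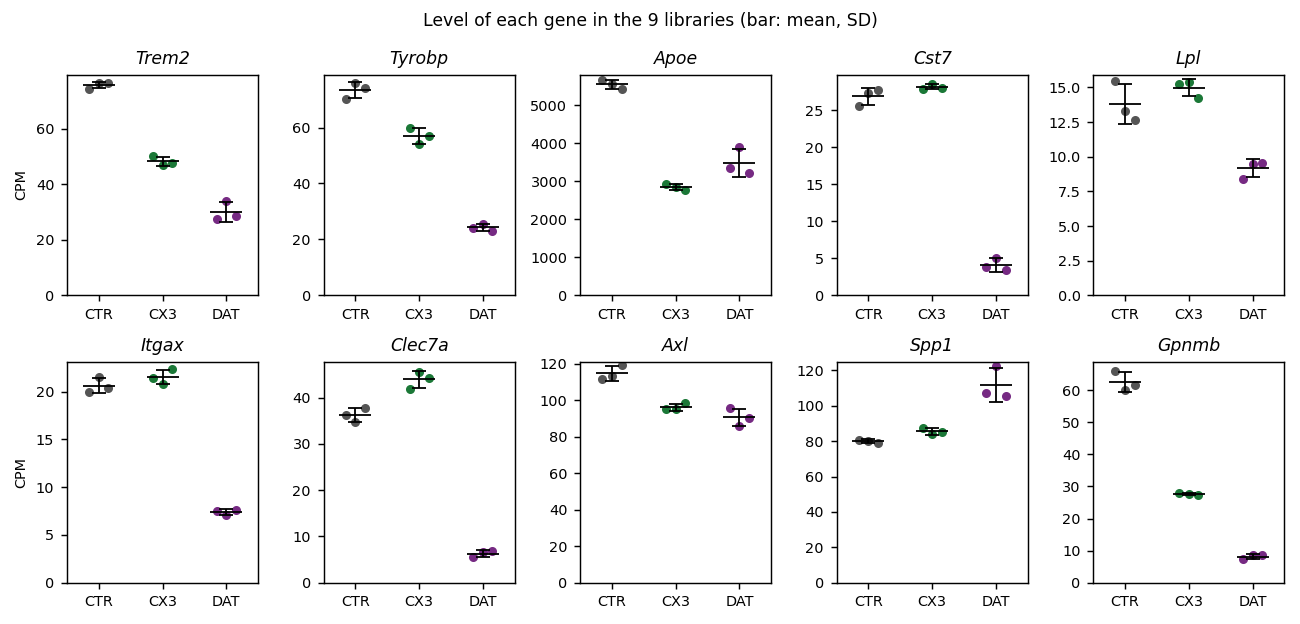
Level of each of the 10 genes in CPM (y axis, linear, from 0) in the 3 libraries of CTR, CX3 and DAT (points), with the mean and SD of each group (bars). Cst7 and Itgax lie close together in CTR and CX3 and low in DAT. Clec7a is somewhat higher in CX3 than in CTR and low in DAT. Gpnmb falls in steps from CTR (62.5 CPM) to CX3 (27.7) to DAT (8.14), Apoe is lowest in CX3 and Spp1 is highest in DAT.

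**Figure D2:**
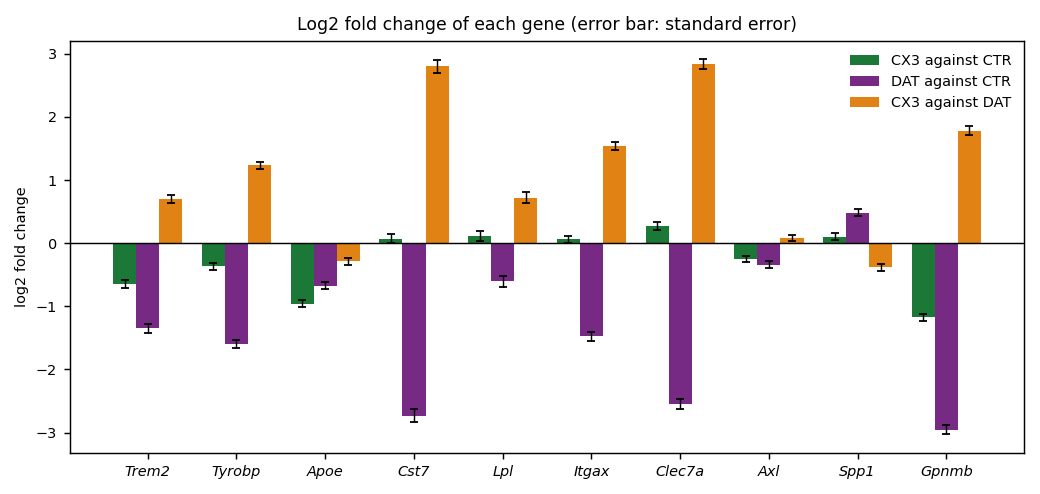
Log2 fold change of each gene (y axis) in CX3 against CTR, DAT against CTR and CX3 against DAT (bars, with the standard error of the edgeR fit). The bars of CX3 against CTR run from -1.17 (Gpnmb) to 0.28 (Clec7a), and those of DAT against CTR from -2.96 (Gpnmb) to 0.48 (Spp1).

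Promoter sequence of 8 of the 10 genes was matched by symbol in RefSeq (GRCm38.p6), with no entry for Tyrobp and Lpl. The 250 bases before the start are shown for Clec7a, the gene that rose in CX3, for Gpnmb and Cst7, which fell furthest in DAT, for Spp1, which rose in DAT, and for Trem2, the receptor. Each is written 5′ to 3′ on the strand of its gene, and capitals mark matches, on either strand, to GAGGAA (the core of the site of PU.1, the myeloid lineage factor), the interferon-stimulated response element or TATAAA (the TATA box). Where a gene had several entries, the one nearest to the annotated start was taken.
Trem2, chr17:48346151-48346400, plus strand: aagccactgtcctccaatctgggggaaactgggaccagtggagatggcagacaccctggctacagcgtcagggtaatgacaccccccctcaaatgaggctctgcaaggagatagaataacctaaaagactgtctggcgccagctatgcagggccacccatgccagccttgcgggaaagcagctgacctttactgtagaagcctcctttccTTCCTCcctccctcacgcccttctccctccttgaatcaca
Clec7a, chr6:129472780-129473029, minus strand: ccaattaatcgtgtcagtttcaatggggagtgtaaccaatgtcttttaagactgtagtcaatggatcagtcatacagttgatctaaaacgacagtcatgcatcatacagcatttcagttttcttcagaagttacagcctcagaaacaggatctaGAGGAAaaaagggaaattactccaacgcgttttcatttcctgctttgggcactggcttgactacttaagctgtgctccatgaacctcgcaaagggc
Gpnmb, chr6:49036268-49036517, plus strand: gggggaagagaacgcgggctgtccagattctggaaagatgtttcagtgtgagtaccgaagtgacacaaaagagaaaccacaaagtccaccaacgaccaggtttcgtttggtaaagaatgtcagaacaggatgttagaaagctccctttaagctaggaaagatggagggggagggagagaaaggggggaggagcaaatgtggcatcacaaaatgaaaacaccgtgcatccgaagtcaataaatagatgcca
Cst7, chr2:150570165-150570414, plus strand: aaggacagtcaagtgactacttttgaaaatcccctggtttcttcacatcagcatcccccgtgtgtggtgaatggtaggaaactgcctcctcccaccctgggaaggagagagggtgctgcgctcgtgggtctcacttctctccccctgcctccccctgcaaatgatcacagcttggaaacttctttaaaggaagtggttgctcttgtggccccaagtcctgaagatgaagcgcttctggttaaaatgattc
Spp1, chr5:104434861-104435110, plus strand: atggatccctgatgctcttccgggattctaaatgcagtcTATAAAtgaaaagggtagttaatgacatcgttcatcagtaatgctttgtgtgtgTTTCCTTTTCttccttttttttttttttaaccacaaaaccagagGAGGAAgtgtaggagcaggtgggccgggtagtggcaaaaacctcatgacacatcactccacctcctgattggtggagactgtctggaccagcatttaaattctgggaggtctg
GAGGAA was present in 5 of the 8 promoters searched (Trem2, Apoe, Clec7a, Axl and Spp1), and in 23.3% of all 32851 promoters of the table over the same length. The windows of Gpnmb, Cst7 and Itgax held none of the letters searched. Spp1 alone among the 8 also held the interferon-stimulated response element (2.98% of all promoters) and TATAAA (12.4%). TCACGTG, the site of MITF and TFE factors, was in 0 of the 8 windows and 3.13% of all promoters, and TTCNNNGAA, the STAT site, in 0 of the 8 and 7.02%. A match is a string of letters and not a shown site of binding.

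The receptor Trem2 (ENSMUSG00000023992.14, chromosome 17 from 48346401 to 48354147 on GRCm38) was highest in CTR, lower in CX3 and lowest in DAT. It had 74.6, 76.6 and 76.6 CPM in CTR libraries A, B and C, 50.3, 47.0 and 47.9 CPM in CX3, and 27.4, 34.1 and 28.5 CPM in DAT, so that the 3 groups did not overlap. Against CTR it was 1.57-fold lower in CX3 (log2 fold change -0.65 ± 0.06 SE, edgeR adjusted p = 4.6e-06) and 2.55-fold lower in DAT (-1.35 ± 0.07, edgeR adjusted p = 9.3e-10). CX3 exceeded DAT by 1.62-fold (0.70 ± 0.07, edgeR adjusted p = 8.0e-07).

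Tyrobp, the adaptor that carries the signal of TREM2 into the cell (ENSMUSG00000030579.10, chromosome 7 from 30413760 to 30417585), fell less than Trem2 in CX3 and more in DAT, by its fitted values. Its levels were 70.1, 75.8 and 74.0 CPM in CTR, 59.9, 54.2 and 56.8 CPM in CX3, and 24.2, 25.7 and 23.0 CPM in DAT. The groups again did not overlap. The log2 fold change was -0.36 ± 0.05 (SE) in CX3 against CTR (edgeR adjusted p = 0.00018) and -1.60 ± 0.06 in DAT against CTR (edgeR adjusted p = 4.1e-11), and CX3 was 2.35-fold above DAT (edgeR adjusted p = 5.6e-10). The difference between the changes of these genes was not tested.

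Clec7a encodes dectin-1, a phagocytic receptor of fungal glucans that is raised on microglia at plaques (ENSMUSG00000079293.11, chromosome 6 from 129461591 to 129472779, biotype polymorphic pseudogene in the annotation). It was the 1 gene of the 10 that rose in CX3, with 41.9, 45.5 and 44.3 CPM there and 36.2, 34.8 and 37.8 CPM in CTR. All 3 CX3 libraries stood above all 3 CTR libraries, by 1.21-fold (log2 fold change 0.28 ± 0.06 SE, edgeR adjusted p = 0.0039). In DAT the same gene had 5.46, 6.54 and 6.80 CPM, 5.87-fold below CTR (-2.55 ± 0.08, edgeR adjusted p = 7.7e-12) and 7.12-fold below CX3, the largest ratio between CX3 and DAT among the 10 genes.

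Itgax, the integrin chain CD11c of dendritic cells and activated microglia (ENSMUSG00000030789.9, chromosome 7 from 128129547 to 128150657), had 20.0, 21.5 and 20.4 CPM in CTR and 21.4, 20.8 and 22.3 CPM in CX3. These ranges overlapped, and the log2 fold change of 0.06 ± 0.06 (SE) did not pass the test (edgeR adjusted p = 0.46). DAT stood apart at 7.54, 7.04 and 7.59 CPM, 2.78-fold below CTR (-1.48 ± 0.07, edgeR adjusted p = 3.5e-10) and 2.90-fold below CX3 by the same fit.

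Axl, a receptor of the TAM family that binds GAS6 on dying cells (ENSMUSG00000002602.16, chromosome 7 from 25757273 to 25788705), moved little. Its levels were 112, 113 and 119 CPM in CTR, 95.0, 94.9 and 98.4 CPM in CX3, and 95.5, 86.1 and 90.1 CPM in DAT. CX3 and DAT overlapped, and both lay below CTR. The fall was 1.19-fold in CX3 (log2 fold change -0.26 ± 0.05 SE, edgeR adjusted p = 0.0013) and 1.27-fold in DAT (-0.34 ± 0.05, edgeR adjusted p = 3.7e-05). Between CX3 and DAT the log2 difference of 0.08 ± 0.05 did not pass (edgeR adjusted p = 0.16). That result depended on the settings, since library size alone (0.28), a filter at a mean of 10 CPM (0.22), the counts of either strand (0.17 and 0.16) and leaving out DAT library A (0.14) each gave a called difference in the same direction.

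Apoe, the lipoprotein that carries cholesterol between brain cells and is made by astrocytes as well as by activated microglia (ENSMUSG00000002985.16, chromosome 7 from 19696109 to 19699188), was the 1 gene of the 10 with its lowest level in CX3 and a called difference from both other groups. Its levels reached 5655, 5558 and 5428 CPM in CTR, 2934, 2845 and 2776 CPM in CX3, and 3349, 3892 and 3210 CPM in DAT, with no overlap between groups. Apoe was 1.95-fold lower in CX3 than in CTR (log2 fold change -0.96 ± 0.06 SE, edgeR adjusted p = 2.0e-08) and 1.59-fold lower in DAT (-0.67 ± 0.06, edgeR adjusted p = 1.4e-07). The difference of -0.29 between CX3 and DAT (edgeR adjusted p = 0.00046) was -0.09 with library size alone as the scaling and then did not pass (edgeR adjusted p = 0.15). Without DAT library B, which had the highest Apoe of its group, that difference was -0.19 and still passed. The astrocyte markers, of cells that also make Apoe, were lower too, in CX3 as a list and in DAT in part. Their summed level was 4213 to 4245 CPM in CTR, 2268 to 2374 in CX3 and 2413 to 2487 in DAT. In CX3 5 of 5 fell (median log2 fold change -0.63), where 16.5% of all genes were called lower. In DAT 3 of 5 fell (-0.15), where 27.9% of all genes were called lower. In DAT the sum fell mostly through Gfap (-1.15) and Aqp4 (-0.84), while Aldh1l1 (-0.04) and Slc1a3 (-0.04) did not pass the test, these 4 being named after their values were seen. The part of astrocytes in the change of Apoe was not tested.

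Lpl, the lipase that releases fatty acids from lipoprotein triglycerides (ENSMUSG00000015568.16, chromosome 8 from 68880491 to 68907448), had the fewest counts per annotated exon base of the 10 genes. Levels of 15.4, 13.3 and 12.7 CPM in CTR overlapped with 15.3, 15.4 and 14.3 CPM in CX3 (log2 fold change 0.12 ± 0.08 SE, edgeR adjusted p = 0.30). In DAT they were 8.42, 9.51 and 9.57 CPM, below every library of both other groups. Lpl was 1.52-fold lower in DAT than in CTR (-0.60 ± 0.09, edgeR adjusted p = 4.4e-05) and CX3 stood 1.65-fold above DAT (edgeR adjusted p = 6.7e-06).

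Spp1, which encodes the secreted integrin ligand osteopontin (ENSMUSG00000029304.14, chromosome 5 from 104435118 to 104441050), was the 1 gene of the 10 that rose in DAT. It had 80.8, 80.1 and 78.7 CPM in CTR, 87.7, 83.8 and 85.2 CPM in CX3, and 107, 123 and 105 CPM in DAT. The groups did not overlap, yet CX3 against CTR did not pass (log2 fold change 0.10 ± 0.06 SE, edgeR adjusted p = 0.20). It passed when only CTR and CX3 entered the fit (edgeR adjusted p = 0.025) and when DAT library B was left out (edgeR adjusted p = 0.023). In DAT the rise was 1.40-fold over CTR (0.48 ± 0.06, edgeR adjusted p = 4.3e-06), and CX3 was 1.30-fold below DAT (edgeR adjusted p = 3.8e-05). Spp1 shares 18.8% of its exon bases with Gm42793 on the same strand, a gene with 0 to 4 counts a library. In counts of this format, reads that fit both genes are ambiguous and counted for neither. The low count of Gm42793 therefore does not show how many reads fell on the shared bases. The other 9 genes share no exon base with another gene.

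Cst7 encodes cystatin F, an inhibitor of lysosomal cathepsins (ENSMUSG00000068129.5, chromosome 2 from 150570415 to 150578944). Its 25.6, 27.3 and 27.8 CPM in CTR and 27.9, 28.6 and 28.1 CPM in CX3 differed by less than the test could call (log2 fold change 0.07 ± 0.07 SE, edgeR adjusted p = 0.52). The 3 DAT libraries, with 3.84, 5.13 and 3.38 CPM, were far below, 6.64-fold under CTR (-2.73 ± 0.10, edgeR adjusted p = 3.3e-11) and 6.96-fold under CX3 (edgeR adjusted p = 2.7e-11). In counts these were 140, 102 and 77 reads, so the level in DAT was low but well above the floor.

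Gpnmb, a membrane glycoprotein of lysosomes in lipid-laden macrophages (ENSMUSG00000029816.10, chromosome 6 from 49036546 to 49070929), fell furthest of the 10 genes in both comparisons with CTR. Values of 65.9, 60.1 and 61.5 CPM in CTR stood above 28.0, 27.7 and 27.4 CPM in CX3, and these above 7.38, 8.50 and 8.56 CPM in DAT. Gpnmb was 2.25-fold lower in CX3 than in CTR (log2 fold change -1.17 ± 0.06 SE, edgeR adjusted p = 2.3e-09) and 7.75-fold lower in DAT (-2.96 ± 0.07, edgeR adjusted p = 3.4e-13). Among the 20892 genes its change lay at percentile 1.91 in CX3 against CTR and at percentile 1.47 in DAT against CTR, counted from the lowest.

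Per length of exon, as reads scaled to exon length and library size (RPKM), the order of the 10 genes changed between groups. Apoe was first in each, with 2594 ± 53.2 RPKM in CTR, 1334 ± 37.0 in CX3 and 1629 ± 168 in DAT (SD, n = 3 libraries). After it came Tyrobp (110.0 ± 4.39) and Spp1 (48.5 ± 0.656) in CTR and, in the same order, Tyrobp (85.4 ± 4.31) and Spp1 (51.9 ± 1.18) in CX3. In DAT their order was the other way, with Spp1 at 67.8 ± 5.75 RPKM and Tyrobp at 36.4 ± 2.002. Cst7 held the fourth place in CTR (27.3 ± 1.20 RPKM) and CX3 (28.6 ± 0.357) and the sixth in DAT (4.17 ± 0.921), behind Axl and Trem2. Trem2 stood above Clec7a in CTR (15.4 ± 0.235 against 13.7 ± 0.574 RPKM) and below it in CX3 (9.79 ± 0.339 against 16.6 ± 0.682). The closest neighbours were Itgax (4.48 ± 0.160 RPKM) and Gpnmb (4.26 ± 0.0477) in CX3, a gap close to the SD, while all other neighbours were further apart than their SDs. Lpl was last in each group, from 0.875 ± 0.0617 RPKM in DAT to 1.43 ± 0.0578 in CX3. Lengths were the union of all annotated exons of a gene (4946 bases for Trem2 and 2638 for Clec7a), which may exceed the transcripts present. The order of different genes within a group therefore depends on the annotation. These orders are descriptions and were not tested.

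The 10 genes were also set against myeloid genes as a whole, since the groups differed in these. Of 10 pan-myeloid genes, 0 rose and 7 fell in CX3 against CTR (median log2 fold change -0.35), and 10 fell in DAT against CTR (median -1.50). In CX3 against DAT, 9 of them were higher and 0 lower. Of all genes tested, 14.0% were called higher and 16.5% lower in CX3 against CTR. The shares were 32.0% and 27.9% in DAT against CTR, and 27.6% and 31.3% in CX3 against DAT. The mean log2 CPM of the pan-myeloid genes was 6.66 to 6.69 in CTR, 6.36 to 6.43 in CX3 and 5.29 to 5.47 in DAT. Laptm5, a lysosomal membrane protein of blood cells, had the highest change of the list in CX3 against CTR (0.06, edgeR adjusted p = 0.44), and Itgam, the integrin chain CD11b, the lowest (-0.59, edgeR adjusted p = 0.0012). Aif1, which encodes IBA1, had 30.6, 30.9 and 31.8 CPM in CTR, 32.9, 31.2 and 27.8 CPM in CX3, and 11.6, 12.5 and 10.3 CPM in DAT. CX3 overlapped with CTR in Aif1, while DAT was below both (log2 fold change -1.44 against CTR, edgeR adjusted p = 2.3e-09).

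Relative to the mean log2 CPM of those pan-myeloid genes in the same library, the median of the 10 genes was 0.19 higher in CX3 than in CTR and 0.11 lower in DAT than in CTR, a description with no test. Between CX3 and DAT that median was -0.05, with 5 genes above 0 and 5 below, where the median of the unreferenced changes was 0.97. Single genes spread widely around these medians. In CX3 against CTR, Clec7a gained most (0.56 ± 0.07 SE), Gpnmb (-0.89 ± 0.04) and Apoe (-0.67 ± 0.02) lost most, and 7 of the 10 stayed within 0.5. Trem2 was 0.36 ± 0.02 lower, Tyrobp 0.08 ± 0.04 lower, and Cst7, Itgax, Spp1 and Lpl were 0.35 to 0.41 higher. In DAT against CTR, Trem2 (-0.04 ± 0.06), Itgax (-0.17 ± 0.09) and Tyrobp (-0.29 ± 0.03) stayed within 0.5, a margin used here for description only. Tyrobp was below the pan-myeloid mean by far more than its SE, and likeness to that mean was not tested. Gpnmb (-1.64 ± 0.09), Cst7 (-1.42 ± 0.13) and Clec7a (-1.23 ± 0.12) were lower beyond that mean, while Apoe (0.63 ± 0.03), Lpl (0.72 ± 0.11), Axl (0.96 ± 0.09) and Spp1 (1.79 ± 0.02) were higher relative to it. With the homeostatic microglia genes as the reference, the medians were 0.31 in CX3 against CTR, -0.90 in DAT against CTR and 0.87 in CX3 against DAT, so the median depends on the list chosen.

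**Figure D3:**
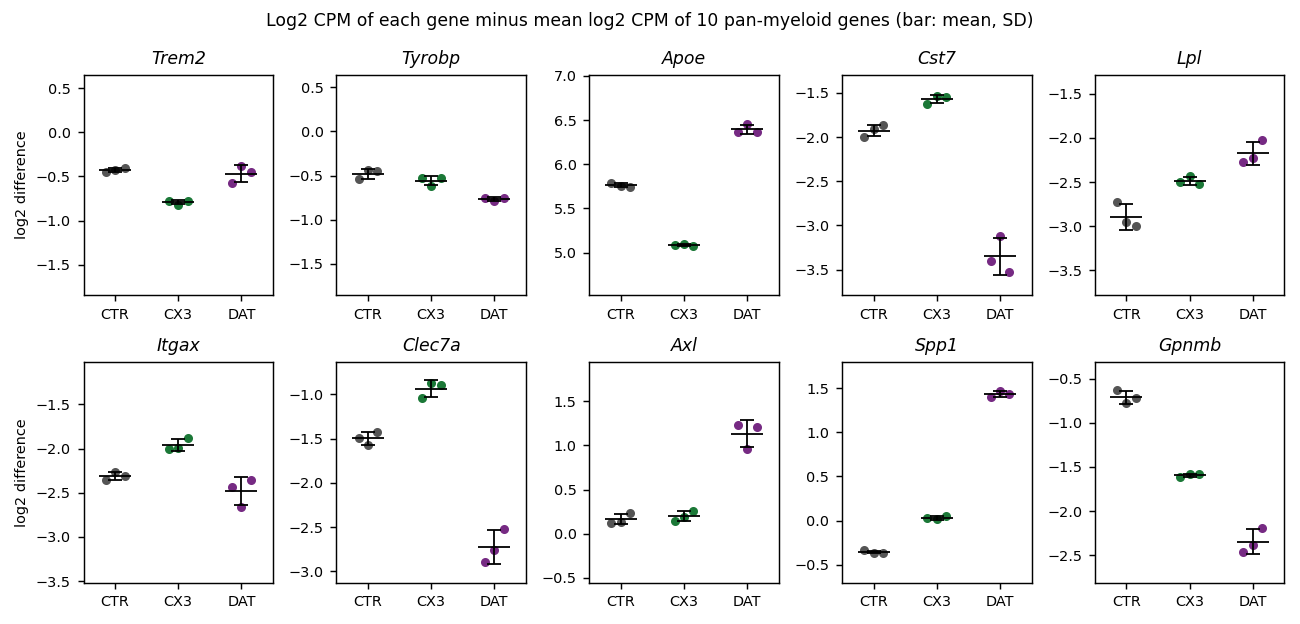
Log2 CPM of each gene minus the mean log2 CPM of 10 pan-myeloid genes in the same library (y axis, log2 difference, each panel with its own range of equal width) for CTR, CX3 and DAT, with points for libraries and bars for the mean and SD. Gpnmb, Cst7 and Clec7a are lowest in DAT, Apoe, Lpl, Axl and Spp1 are highest in DAT, and Trem2 is lowest in CX3 while CTR and DAT overlap.

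Of 22 other genes of the same program, 4 rose and 9 fell in CX3 against CTR (median log2 fold change -0.08). In DAT against CTR 3 rose and 17 fell (-0.60), and in CX3 against DAT 14 were higher and 4 lower (0.46). Of all genes tested, 14.0% were called higher and 16.5% lower in CX3 against CTR. The shares were 32.0% and 27.9% in DAT against CTR, and 27.6% and 31.3% in CX3 against DAT. Ccl6, a chemokine of myeloid cells, had the highest change in CX3, from 7.49, 8.13 and 8.10 CPM in CTR to 10.6, 10.9 and 9.84 CPM (0.40, edgeR adjusted p = 0.0053), and 2.74, 2.82 and 3.69 CPM in DAT. Cd68, a lysosomal protein of macrophages, had the lowest, from 38.1, 37.7 and 40.1 CPM in CTR to 21.9, 20.7 and 23.7 CPM (-0.80, edgeR adjusted p = 3.1e-07), with 11.5, 11.2 and 12.5 CPM in DAT. Neither gene overlapped between groups. Chosen after their values were seen, the cathepsin genes Ctsb, Ctsd, Ctsl and Ctsz fell in both comparisons with CTR, by 0.60, 0.69, 0.32 and 0.25 on the log2 scale in CX3 and by 0.34, 1.04, 0.31 and 1.01 in DAT. Also chosen so, B2m, the light chain of MHC class I, had a log2 fold change of -0.09 in CX3 (edgeR adjusted p = 0.16) and -1.94 in DAT (edgeR adjusted p = 7.6e-13), and Lilrb4a, an inhibitory receptor, fell furthest of the list in DAT (-3.05, edgeR adjusted p = 1.7e-08).

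Around the receptors, 8 genes of TREM2 signalling and shedding had 0 risen and 6 fallen in CX3 against CTR (median log2 fold change -0.27), and 1 risen and 7 fallen in DAT against CTR (-0.76). In CX3 against DAT, 6 were higher and 1 lower (0.59). Beside these counts and those of the TAM genes below, 14.0% of all genes were called higher and 16.5% lower in CX3 against CTR. The shares were 32.0% and 27.9% in DAT against CTR, and 27.6% and 31.3% in CX3 against DAT. Plcg2, the phospholipase that acts below TREM2, had the lowest change in CX3 (-0.53, edgeR adjusted p = 0.00015) and Card9, an adaptor below dectin-1, the highest (0.09, edgeR adjusted p = 0.60). Of 5 other genes of the TREM family, Trem1, Trem3 and Treml1 were too low to be tested. Treml2 fell in CX3 (-0.60, edgeR adjusted p = 0.00048) and in DAT (-1.44, edgeR adjusted p = 9.8e-08), and Treml4 rose in CX3 (1.65, edgeR adjusted p = 0.0025), from 0.131 to 0.330 CPM in CTR to 0.755 to 0.866 CPM, levels near the floor, and did not pass in DAT (-0.42, edgeR adjusted p = 0.48). Among the TAM receptors and ligands besides Axl, 2 of 4 fell and 0 rose in CX3 (median -0.18), 2 rose and 2 fell in DAT (0.07), and 2 were higher and 2 lower in CX3 against DAT (-0.25). Mertk, the phagocytic receptor of that family, fell in both (-0.61, edgeR adjusted p = 1.9e-05, and -0.98, edgeR adjusted p = 5.5e-08), while Tyro3, its neuronal relative, did not pass in CX3 (-0.09, edgeR adjusted p = 0.18) and rose in DAT (0.65, edgeR adjusted p = 4.5e-08).

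Of 12 lipid handling genes 11 were tested, Gpihbp1 being too low. In CX3 against CTR 8 fell (median log2 fold change -0.39), where 16.5% of all genes were called lower. In DAT against CTR 4 rose and 5 fell (-0.19), where 32.0% of all genes were higher and 27.9% lower. In CX3 against DAT 2 were higher and 8 lower (-0.21), where 27.6% and 31.3% of all genes were. The 4 of 11 that rose in DAT were near the share of all genes. Abca1, the exporter that loads cholesterol onto apolipoproteins, had the lowest change in CX3 and fell there (-0.89, edgeR adjusted p = 5.1e-06) and in DAT (-0.31, edgeR adjusted p = 0.0073). Of 7 integrin genes, partners of Itgax and receptors of osteopontin, 1 rose and 4 fell in CX3 (median -0.25). In DAT 2 rose and 5 fell (-0.27), and 4 were higher and 3 lower in CX3 against DAT. The genes that rose, 1 of 7 in CX3 and 2 of 7 in DAT, were near the shares of all genes (14.0% and 32.0%). Itgb3 had the highest change in CX3 against CTR (0.35, edgeR adjusted p = 0.020) and Itgb5 the lowest (-0.56, edgeR adjusted p = 1.0e-06).

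The homeostatic microglia genes, which the disease-associated program lowers, were lower in both groups than in CTR. Of 13, 10 fell and 0 rose in CX3 (median log2 fold change -0.45), where 16.5% of all genes were called lower and 14.0% higher. In DAT 11 fell and 1 rose (-0.66), where 27.9% of all genes were lower and 32.0% higher. In CX3 against DAT 7 were higher and 3 lower (0.20), where 27.6% and 31.3% of all genes were. Cx3cr1 had the lowest change in CX3, where it fell by 1.20 on the log2 scale (edgeR adjusted p = 2.8e-10), and Sall1, a transcription factor of microglia, the highest (0.07, edgeR adjusted p = 0.55). In CX3 the disease-associated and the homeostatic genes were both more often lower than higher. The CX3CR1-CreERT2 allele lies at Cx3cr1 itself, so this gene is no neutral marker in these lines. By the stated design CTR and CX3 both carry that allele, and the cause of their difference in Cx3cr1 was not tested.

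**Figure D4:**
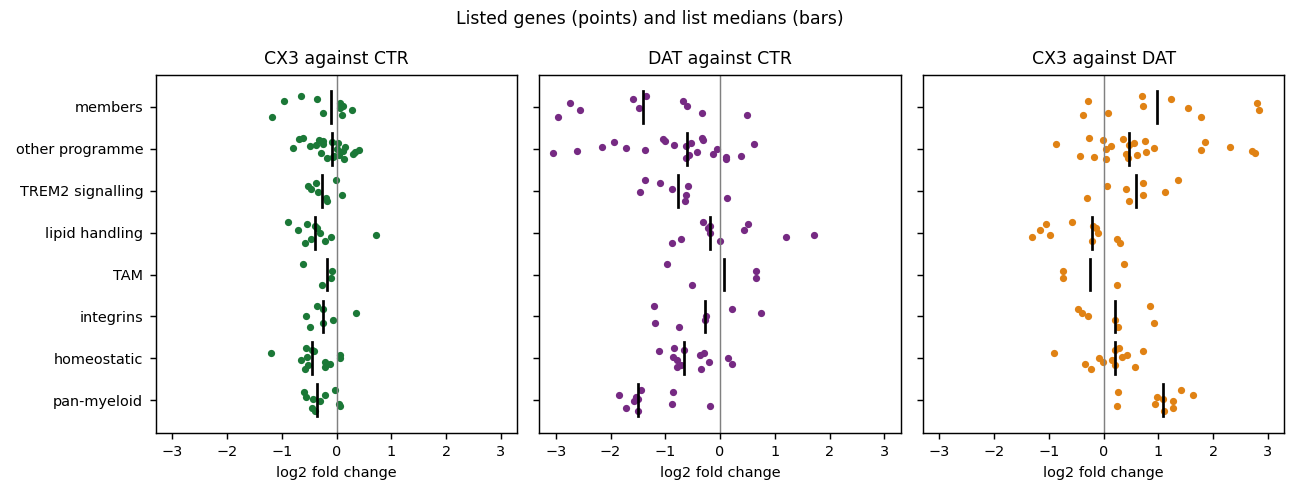
Log2 fold change (x axis) of each gene of 8 lists (points) and the median of each list (black bars) in CX3 against CTR, DAT against CTR and CX3 against DAT. The top row, labelled members, holds the 10 genes described here. In DAT against CTR their median (-1.41) lies near that of the pan-myeloid genes (-1.50), and in CX3 against CTR their median (-0.10) lies above that of the homeostatic (-0.45) and pan-myeloid genes (-0.35).

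Markers of other cells moved with the groups as well, and their part in the results above was not tested. Beside the counts that follow, 14.0% of all genes were called higher and 16.5% lower in CX3 against CTR. In DAT against CTR 32.0% of all genes were called higher and 27.9% lower. In lists this short, counts of 1 or 2 genes can lie near these shares. Summed levels of 7 monocyte and neutrophil markers were 52.6 to 52.9 CPM in CTR, 30.7 to 31.2 in CX3 and 6.97 to 7.54 in DAT. Ly6g was too low to be tested in any group, with 0 to 2 counts a library. The list did not move as a block, since Ly6c2 fell in CX3 from 38.1 to 39.8 CPM in CTR to 8.10 to 9.21 CPM while Chil3 rose from 0.624 to 0.8001 CPM to 4.04 to 4.94 CPM. Of the 6 of these markers tested, 2 rose and 3 fell in CX3 against CTR, and 6 fell in DAT. For 6 dendritic cell markers, of cells that also express Itgax, sums were 31.0 to 32.7 CPM in CTR, 37.0 to 38.4 in CX3 and 28.6 to 30.6 in DAT, and 3 rose in CX3 and 3 fell in DAT. Xcr1 had the highest change in CX3 (log2 fold change 2.04, edgeR adjusted p = 1.0e-05) and Flt3 the lowest (-0.02). Perivascular macrophage markers summed to 28.2 to 30.2, 31.8 to 34.9 and 38.0 to 39.4 CPM in CTR, CX3 and DAT, with 2 of 5 higher and 1 lower in CX3 and 4 higher in DAT. T cell markers summed to 46.9 to 47.6, 37.4 to 41.1 and 11.3 to 12.2 CPM, with 3 of 6 lower in CX3 and 6 of 6 in DAT. In DAT the monocyte, neutrophil and T cell markers tested were thus lower along with 9 of the 10 disease-associated genes. Perivascular macrophage markers went the other way, with 4 of 5 higher, and 3 of 6 dendritic cell markers did not pass.

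Markers of choroid plexus and pituitary, which are no part of the nigra, differed between groups too. The counts in this paragraph stand beside 14.0% of all genes called higher and 16.5% lower in CX3 against CTR. In DAT against CTR these shares were 32.0% and 27.9%, and counts of 1 or 2 genes can lie near them. Choroid plexus markers summed to 32.7 to 35.4 CPM in CTR, 1459 to 1569 in CX3 and 860.1 to 1030 in DAT, with 4 of 4 higher in CX3 and in DAT. Ttr, the transthyretin gene of choroid plexus, had 20.0 ± 0.720 CPM in CTR, 1457 ± 56.2 in CX3 and 853 ± 97.7 in DAT (SD, n = 3 libraries). Pituitary markers summed to 57.5 to 60.1, 2.97 to 3.09 and 15.1 to 20.97 CPM, with Prl at 0 in every DAT library and Gh at 34.7 ± 1.10, 0.217 ± 0.123 and 0.103 ± 0.0604 CPM. The sum in DAT was almost all Pomc, which had 17.9, 2.73 and 17.2 CPM in CTR, CX3 and DAT. Of the 3 pituitary markers tested, 3 fell in CX3, while in DAT 2 fell and Pomc (log2 fold change -0.06) did not pass. Dopaminergic neuron markers summed to 395.6 to 398.7 CPM in CTR, 571.2 to 575.9 in CX3 and 332.1 to 336.7 in DAT, with 4 of 4 higher in CX3, and 3 lower and 1 higher in DAT. Among other cells, 4 of 4 endothelial markers and 4 of 4 neuronal markers were higher in DAT than in CTR. In CX3, 2 of 4 endothelial markers were higher and 0 lower, and 2 of 4 neuronal markers were higher and 1 lower. Meningeal fibroblast markers were higher in DAT for 2 of 4 and lower in CX3 for 2 of 4. Oligodendrocyte markers rose for 2 of 5 and fell for 1 in CX3, and rose for 2 and fell for 3 in DAT, and precursor markers fell for 2 of 3 in CX3 and rose for 2 of 3 in DAT.

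In CX3 against CTR, the highest and the lowest log2 fold change among the monocyte and neutrophil markers were those of Chil3 (2.69) and Ly6c2 (-2.17), among the perivascular markers F13a1 (0.52) and Lyve1 (-0.78), and among the T cell markers Cd8a (-0.05) and Cd4 (-0.68). For astrocytes they were Gja1 (-0.46) and Gfap (-1.004), for oligodendrocytes Mbp (0.14) and Mag (-0.32), and for their precursors Cspg4 (0.07) and Gpr17 (-0.69). Endothelial markers ran from Cldn5 (1.20) to Cdh5 (-0.04), fibroblast markers from Lum (0.18) to Col1a2 (-1.05), and neuronal markers from Snap25 (0.39) to Tubb3 (-0.21). Choroid plexus markers ran from Ttr (6.18) to Clic6 (1.503), dopaminergic markers from Slc6a3 (0.59) to Th (0.30), and pituitary markers from Pomc (-2.71) to Gh (-7.31). Within these lists the dopaminergic and choroid plexus markers moved up together in CX3, and the astrocyte and pituitary markers down together.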

How the data were processed

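Sequencing covered 9 libraries of nigral RNA (TruSeq Stranded mRNA kit, 76-base reads). For each library the authors deposited unnormalized counts of reads per gene, after Trimmomatic and STAR on mm10. The format is that of the gene counts STAR writes, whereas featureCounts is what the methods give, with DESeq2 for testing. Versions are not given in the sources used here. Both strands were counted as 1, since the reverse strand held 49.8% to 49.9% of the strand-specific counts, so reads of overlapping genes on opposite strands cannot be told apart. Symbols, positions and exon lengths came from GENCODE M21 (GRCm38).

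All genes were filtered with filterByExpr, scaled by TMM and tested with edgeR 4.0.16 in R 4.3.3 (glmQLFit and glmQLFTest, 1 term for the group, 9 libraries in 1 fit, Benjamini-Hochberg over 20892 genes, square root of the common dispersion 0.0561). Alternatives were DESeq2 1.42.0, other scalings, filters and strands, a 1.5-fold threshold, fits of 2 groups, a replicate block and leaving out each library. The steps were tested on simulated data. The 10 genes and the other lists were chosen with earlier results of these data known. The genes named are the 10, the highest and lowest of each list in CX3 against CTR, Aif1, Cx3cr1 and Slc6a3, and those marked as chosen after their values were seen. Libraries with the same letter did not deviate together (correlation of deviations from the group means -0.14 to 0.040, against -0.11 to 0.14 for other letters), so the letters were not taken as pairs. Unassigned reads were left out of library sizes. Reads of no gene made up 9.82% to 10.0% in CTR, 8.36% to 9.47% in CX3 and 5.45% to 5.58% in DAT, and ambiguous ones 5.71% to 5.79%, 5.89% to 6.02% and 6.96% to 7.45%. Other steps used Python 3.11.15 with pandas 2.3.3. Single-cell data, the allele of the transgene and 1 gene of the lipid handling list are not reported here.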

Additional observations from a re-analysis of the deposited data

How the results depend on the processing

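None of the changes of the 10 genes turned its direction under any alternative run. Apart from leaving out libraries, the values of single genes kept their side of the threshold in 95, 96 and 91 cases in CX3 against CTR, DAT against CTR and CX3 against DAT, lost the call in 4, 4 and 5 and gained it in 1, 0 and 4. Where the fold had to exceed 1.5, the genes called fell from 6367, 12520 and 12311 to 529 in CX3 against CTR, 3773 in DAT against CTR and 3780 in CX3 against DAT. Of the 10 genes it then left 0 higher and 2 lower in CX3 against CTR, 0 higher in DAT against CTR and 0 lower in CX3 against DAT. A mean of at least 10 CPM left 7747 genes called in DAT against CTR and 7988 in CX3 against DAT, since fewer genes (10873) were tested. With 2 groups only in the fit, 2 of the 10 genes were higher in CX3 against CTR, and leaving out 1 library gave 1 to 2, the second being Spp1 without DAT library B. Library size alone as the scaling left 1 lower in CX3 against DAT, which was Spp1. The replicate block, which took the letters as pairs, gave 5805, 12144 and 11955 calls and changed no call of the 10 genes, and the letters are no shown pairing. DESeq2 called 5832, 11985 and 11790 genes, with no changed call among the 10. With the homeostatic microglia genes as reference, the median relative level of the 10 genes was 0.31, -0.90 and 0.87 in CX3 against CTR, DAT against CTR and CX3 against DAT, in place of 0.19, -0.11 and -0.05 with the pan-myeloid genes. Leaving out 1 library gave 0.155 to 0.216 in CX3 against CTR, the lowest without CX3 library C. The cause of these shifts was not tested. Depth was no limit for the 10 genes, the lowest count being 77 reads (Cst7 in DAT library C), but the 3 libraries a group limit the error to the spread between them.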
